A study of Drosophila melanogaster with 24 samples.

Results

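Male *Drosophila melanogaster* that had developed and lived at a constant 25 °C were compared with males kept at a constant 15 °C, and all were held at 20 °C when they were sampled. The comparison takes the 6 of the 24 arrays whose titles give a constant regime and the 20 °C assay, 3 from 25 °C and 3 from 15 °C, with all 18769 probe sets that are not array controls. Each array measured the RNA of a pool of 20 whole males from a laboratory population founded from flies caught in Denmark. The flies were reared from egg to an age of 6 days at their own temperature under light and dark phases of 12 h. At 18 h before the assay began they were moved to 20 °C. They stayed at 20 °C while other pools were ramped to 35 °C, and all pools were then snap frozen. One thermal cabinet held each regime, so temperature and cabinet cannot be told apart, and the spread between replicates is that between pools of 1 cabinet. Flies of both temperatures had the same age in days, so that temperature and physiological age cannot be told apart either. In whole flies, fewer cells of a type and less RNA per cell cannot be told apart. The other 18 arrays hold constant flies ramped to 35 °C and flies from regimes that fluctuated around the same means.

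The body of a fly takes the temperature of its surroundings, and the temperature of development sets how fast it grows, how large it becomes and how dark its cuticle is. Adults from warm rearing tolerate heat better and adults from cool rearing tolerate cold better, which is known as thermal acclimation. The thorax of a fly is filled by flight muscles packed with mitochondria, which makes muscle and respiratory genes a large part of the RNA of a whole male.

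Deposited values are log2 expression levels, so that 1 unit is a doubling. A probe set is said to have risen or fallen at 25 °C where its adjusted p was under 0.05 by limma, fitted to 8 group means on 23 arrays. The array left out, of 15 °C fluctuating flies at 35 °C, is not among the 6 of the comparison. Over all probe sets the 25 °C arrays correlated with each other at 0.9971 or more, the 15 °C arrays at 0.99 or more, and arrays of different temperatures at 0.9795 to 0.9878. Markers of testis (medians of 10.65 to 11.16 in 25 °C flies and of 11.15 to 11.32 in 15 °C flies) and of accessory gland (13.12 to 13.16 and 13.39 to 13.53) were high on all 6 arrays. One array, 15 °C replicate 1, also carried egg shell and yolk transcripts, which males should lack. Over 19 such genes it read a median of 5.05 units above the mean of the other 15 °C arrays, and 16 of the 19 were more than 1 unit higher. Values from 22 arrays, without this one, are therefore given beside a gene whose call it changes and beside a count that it moves by over 1.5 times.

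Many probe sets differed, most of them by small amounts. Of 18769 probe sets, 8063 (43%) differed between 25 and 15 °C flies, of which 4126 (22%) were higher and 3937 (21%) lower at 25 °C. These counts are from 23 arrays, and with the poorly correlating array of 15 °C fluctuating flies at 35 °C included 818 were called, 373 higher and 445 lower. Counted by gene, with the probe set of highest mean standing for each, 3136 of 11982 genes rose (26.2%) and 3356 fell (28%), and on the 22 arrays 3159 (26.4%) rose and 3256 (27.2%) fell. These shares are the background for every group of genes described here. The median absolute change was 0.21 over all probe sets and 0.46 over those called, while the median SD within a group was 0.10 at 25 °C and 0.11 at 15 °C. Changes of at least 1 unit were fewer, with 273 probe sets higher and 259 lower, and 15 rose and 18 fell by at least 2 units. Without 15 °C replicate 1 the counts were 4047 (21.6%) higher and 3844 (20.5%) lower. Of the 8063, 7273 were called again with the same sign and 0 with the opposite sign, 790 were lost and 618 others were gained. The share of probe sets called grew with the level, with 5.69% higher and 2.18% lower among those with a mean of 4 or less on the log2 scale, and 34.1% and 40.9% above 10.

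The genes that rose most code for an antimicrobial peptide, a sterol-binding protein, a cytochrome P450 and a metallothionein, beside several genes known only by their number. *Metchnikowin* (*Mtk*, probe set 1627613_at), an antimicrobial peptide made by the fat body, had 9.89, 9.78 and 9.31 log2 units in 25 °C flies, against 6.77, 6.78 and 5.93 in 15 °C flies. It rose by 3.17 ± 0.68 log2 units (adjusted p = 0.00074), 8.98 times as high. *Npc2e*, of a family of secreted sterol-binding proteins, had 8.93, 8.78 and 9.19 log2 units in 25 °C flies, against 5.55, 6.20 and 5.85 in 15 °C flies. It rose by 3.10 ± 0.32 log2 units (adjusted p = 4.4e-07), with the lowest 25 °C array well above the highest 15 °C array. *CG5550* had 7.96, 7.70 and 7.92 log2 units in 25 °C flies, against 4.73, 5.43 and 5.14 in 15 °C flies, and *Srg2* had 10.28, 10.46 and 10.21 log2 units in 25 °C flies, against 7.12, 7.63 and 8.22 in 15 °C flies. They rose by 2.76 ± 0.33 and 2.66 ± 0.28. Lack of overlap between the arrays of the 2 temperatures was a condition for the genes named as rising or falling most, not a result. The P450 gene *Cyp6a8* read 11.54, 11.85 and 11.80 log2 units in 25 °C flies, against 9.26, 9.74 and 9.96 in 15 °C flies, and rose by 2.08 ± 0.30 log2 units (adjusted p = 1.4e-05). *MtnB*, which codes for a metal-binding metallothionein, had 8.62, 8.22 and 7.58 log2 units in 25 °C flies, against 6.18, 5.83 and 6.46 in 15 °C flies, and *UGP*, the enzyme that makes UDP-glucose for glycogen and cuticle sugars, had 7.81, 8.22 and 7.93 log2 units in 25 °C flies, against 6.27, 6.17 and 5.81 in 15 °C flies. Their changes were 1.99 and 1.90. Further large rises were seen in *CG14219* (2.51), *CG10182* (2.48), *CG15043* (2.44), *CG15263* (2.43), *CG16775* (2.27), *CG14406* (2.17), *CG13325* (2.16) and *CG10910* (2.0). The largest rise of all lay in a probe set with no single gene symbol in the annotation used here, 1626699_at. It had 9.43, 9.27 and 9.24 in 25 °C flies, against 4.81, 5.13 and 4.95 in 15 °C flies, a change of 4.35 ± 0.20 log2 units (adjusted p = 2.1e-11).

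Flight muscle genes fell most. *TpnC4* (probe set 1634310_at), a troponin C of the flight muscle, had 7.49, 7.59 and 7.33 log2 units in 25 °C flies, against 11.98, 12.08 and 11.87 in 15 °C flies. It fell by 4.51 ± 0.25 log2 units (adjusted p = 2.9e-10), 22.8 times lower. *flightin* (*fln*, probe set 1637335_at), which stiffens the thick filaments of flight muscle, had 6.92, 6.76 and 6.57 log2 units in 25 °C flies, against 11.08, 11.46 and 11.04 in 15 °C flies and fell by 4.44 ± 0.30 log2 units (adjusted p = 3e-09). The flight muscle actin gene *Act88F* had 9.17, 8.94 and 9.09 log2 units in 25 °C flies, against 11.70, 11.66 and 11.41 in 15 °C flies. It fell by 2.53 ± 0.17 log2 units (adjusted p = 3e-09), and in all 3 genes the arrays of both temperatures lay far apart. *CG7214* had 4.71, 4.84 and 5.17 log2 units in 25 °C flies, against 8.56, 8.88 and 8.17 in 15 °C flies, and *CG13026* had 5.17, 5.41 and 5.23 log2 units in 25 °C flies, against 7.83, 7.91 and 7.66 in 15 °C flies, with changes of -3.63 and -2.53. *CG15617* (-2.50), *msopa* (-2.25), a gene expressed in males, the gustatory receptor gene *Gr8a* (-2.09), *Eh* (-2.06), which codes for eclosion hormone, *CG7227* (-2.0), *retinin* (-1.98), a protein of the corneal lens, and *CG12105* (-1.97) also fell. In a further 3 of the genes with the largest falls, the size of the change depended on 1 array. *deadhead* (*dhd*), a thioredoxin of the female germ line, had 6.41, 6.4 and 6.20 log2 units in 25 °C flies, against 12.30, 6.95 and 7.0 in 15 °C flies. With 15 °C replicate 1 left out its change was -0.64 (adjusted p = 0.0004), against -2.41 with it. The mitotic cyclin gene *CycB* (-2.35) and *mtrm* (-2.25), a regulator of oocyte meiosis, had -1.32 and -1.22 without it, and remained called.

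**Figure D1:**
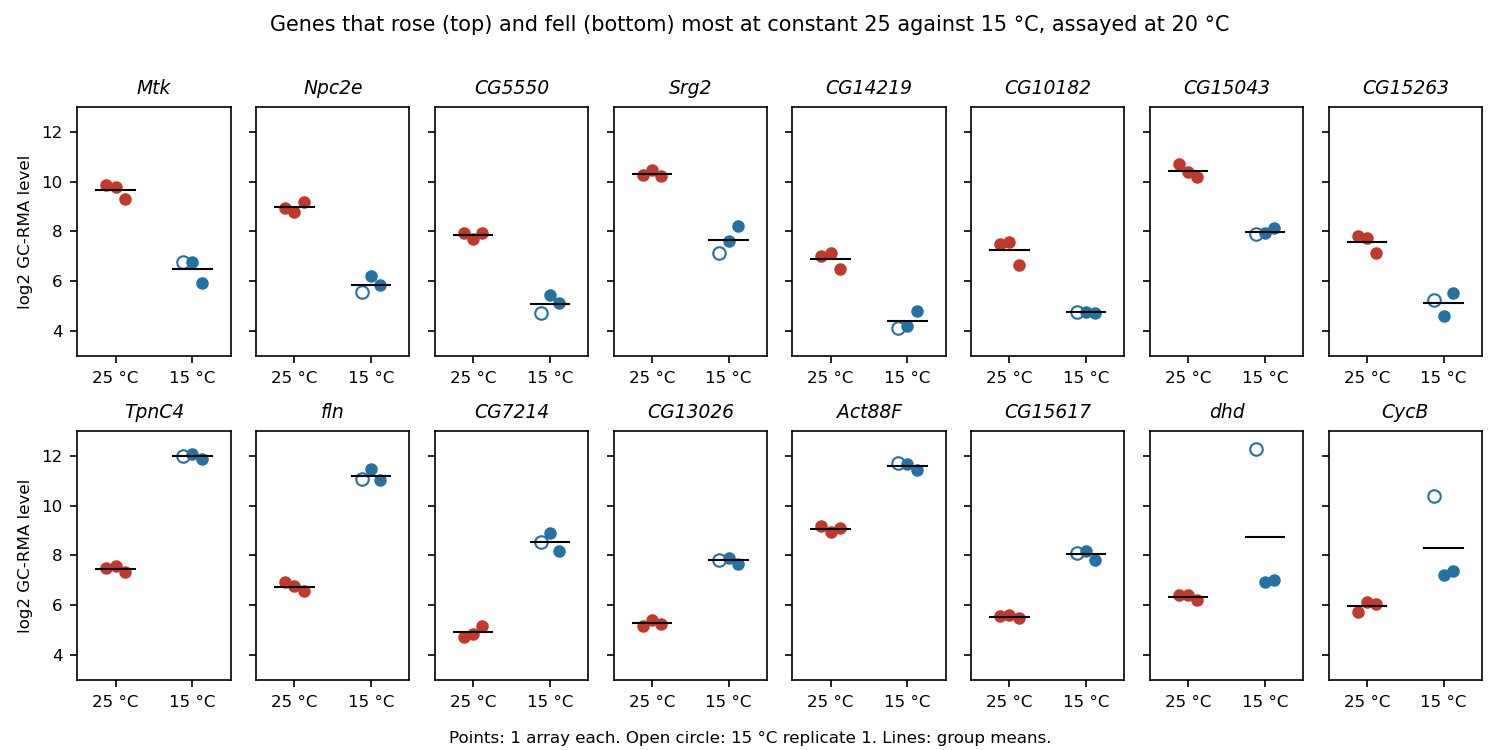
Level (log2 GC-RMA units, linear axis of log2 values) of the 8 named genes called with the largest rises (top row) and the 8 with the largest falls (bottom row) in 25 °C flies (red, left) and 15 °C flies (blue, right). Each point is 1 array, the open circle is 15 °C replicate 1 and lines are group means. Only genes whose groups do not overlap were eligible, so the lack of overlap in the 16 genes was set by the choice. In dhd and CycB the open circle lies far above the other 15 °C arrays.

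Most genes of muscle and of the respiratory chain fell. Of 23 measured genes of the sarcomere and flight muscle, *TpnC4*, *fln* and *Act88F* among them, 0 rose and 21 fell. Their median change was -0.45 log2 units, where 26.2% of all genes rose, 28% fell and the median over all genes was 0.016. Of 32 subunits of respiratory complex I, the NADH dehydrogenase that feeds electrons into the chain, 0 rose and 31 fell (median -0.50). Complexes II to IV, which pass the electrons on to oxygen, had 1 of 18 genes higher and 16 lower (median -0.48). For the ATP synthase 15 of 16 genes fell and 0 rose (median -0.62). The complex I gene *ND-B8* had 8.83, 9.01 and 8.89 log2 units in 25 °C flies, against 10.45, 10.57 and 10.59 in 15 °C flies. It fell by 1.63 ± 0.12 log2 units (adjusted p = 8.5e-09), more than any other subunit of the chain. *SdhB*, *SdhC* and *SdhD*, 3 of the succinate dehydrogenase subunits, had changes of -0.79 ± 0.092, -0.81 ± 0.085 and -0.82 ± 0.062. *ATPsynbeta*, the catalytic subunit of the synthase, had 12.16, 11.45 and 12.15 log2 units in 25 °C flies, against 12.83, 12.96 and 12.95 in 15 °C flies, a change of -1.0 ± 0.13, and a second probe set of it fell by 0.38. The proton ring gene *ATPsynC* (-0.78) and *ATPsynD* (-0.70) fell as well. *COX7A*, a cytochrome c oxidase subunit, was the 1 gene of the chain that rose, by 0.30 ± 0.064. Its arrays read 12.43, 12.49 and 12.47 at 25 °C, against 12.23, 12.13 and 12.13 at 15 °C. Complex I also has paralogs marked L in their symbol, and all 5 measured ones fell, with a median change of -0.71, among them *ND-51L2* (-0.91) and *ND-B14.5AL* (-0.87). This group was set apart after values were seen, and 26 of the 27 other members fell too (median -0.46). With 15 °C replicate 1 left out the muscle list had 20 lower, complex I 31, complexes II to IV 16 and the synthase 15.

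In central carbon metabolism most glycolysis genes fell, and most of those that make or store sugar rose. In the tricarboxylic acid cycle, 4 of 12 genes rose and 6 fell. All 3 subunits of the NAD isocitrate dehydrogenase were lower, *Idh3a* by 0.89, with further changes of -0.66 in *Idh3g* and -0.53 in *Idh3b*. Malic enzyme (*Men*, 0.57) and the succinyl-CoA synthetase gene *Scsalpha1* (0.39) were higher. In glycolysis 1 of 11 genes rose and 7 fell. *Gapdh1* had 12.58, 12.50 and 12.63 log2 units in 25 °C flies, against 13.27, 13.26 and 13.18 in 15 °C flies, and *Pgk*, the next enzyme of the pathway, had 11.53, 11.40 and 11.63 log2 units in 25 °C flies, against 12.22, 12.21 and 12.13 in 15 °C flies. Both changed by -0.67 log2 units. *Pfk*, phosphofructokinase, changed by -0.44, whereas *Hex-C*, a hexokinase, rose by 0.64 ± 0.093. Of 10 genes of trehalose, glycogen and gluconeogenesis 6 rose and 1 fell (6 and 2 without 15 °C replicate 1). Fructose bisphosphatase (*fbp*), which runs glycolysis backwards, had 11.76, 11.68 and 11.74 log2 units in 25 °C flies, against 10.92, 10.69 and 10.72 in 15 °C flies and rose by 0.95 ± 0.11 log2 units (adjusted p = 1.5e-06). The gluconeogenic enzyme *Pepck1* was higher by 0.55 and its paralog *Pepck2* was lower (change -0.38, adjusted p = 0.0099).

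All measured genes of fatty acid oxidation rose, and more lipid genes rose than fell. All 7 of 7 measured genes of fatty acid oxidation rose, with a median change of 0.59, among them the acyl-CoA oxidase gene *Acox57D-p* (0.90 ± 0.12) and the thiolase gene *yip2* (0.79 ± 0.10). Of 26 genes of lipid storage and synthesis 15 rose and 2 fell. *Apoltp*, a lipid transfer protein of the blood, had 10.97, 10.87 and 10.92 log2 units in 25 °C flies, against 10.10, 9.67 and 9.78 in 15 °C flies. The lipase gene *Lip4* had 9.84, 9.82 and 9.85 log2 units in 25 °C flies, against 8.75, 8.86 and 8.76 in 15 °C flies, and *Lsd-1*, the perilipin that coats lipid droplets, had 11.52, 11.33 and 11.39 log2 units in 25 °C flies, against 10.49, 10.46 and 10.61 in 15 °C flies. Their changes were 1.07, 1.05 and 0.89. The elongase *eloF*, which makes female cuticular hydrocarbons, was called lower (-1.0, adjusted p = 0.041). It had 4.53, 4.70 and 4.57 log2 units in 25 °C flies, against 7.26, 4.73 and 4.80 in 15 °C flies, so that 15 °C replicate 1 stood apart. Its change was -0.17 without that array, and it also missed the threshold without any 1 of the 25 °C arrays (adjusted p of 0.066 to 0.098). Of the 5 genes used here as fat body markers, the list holds *apolpp* (0.36), which rose, and *Fad2* and *Desat1*, which were not called. *Lsp2*, outside it, rose by 1.37. Their part in these changes was not tested. On the 22 arrays 16 lipid genes were higher and 0 lower. The count of 2 lower was 0 without 25 °C replicate 2 or 3 and 1 without 25 °C replicate 1. Of 10 genes that build peroxisomes, where long fatty acids are shortened, 4 rose and 1 fell.

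**Figure D2:**
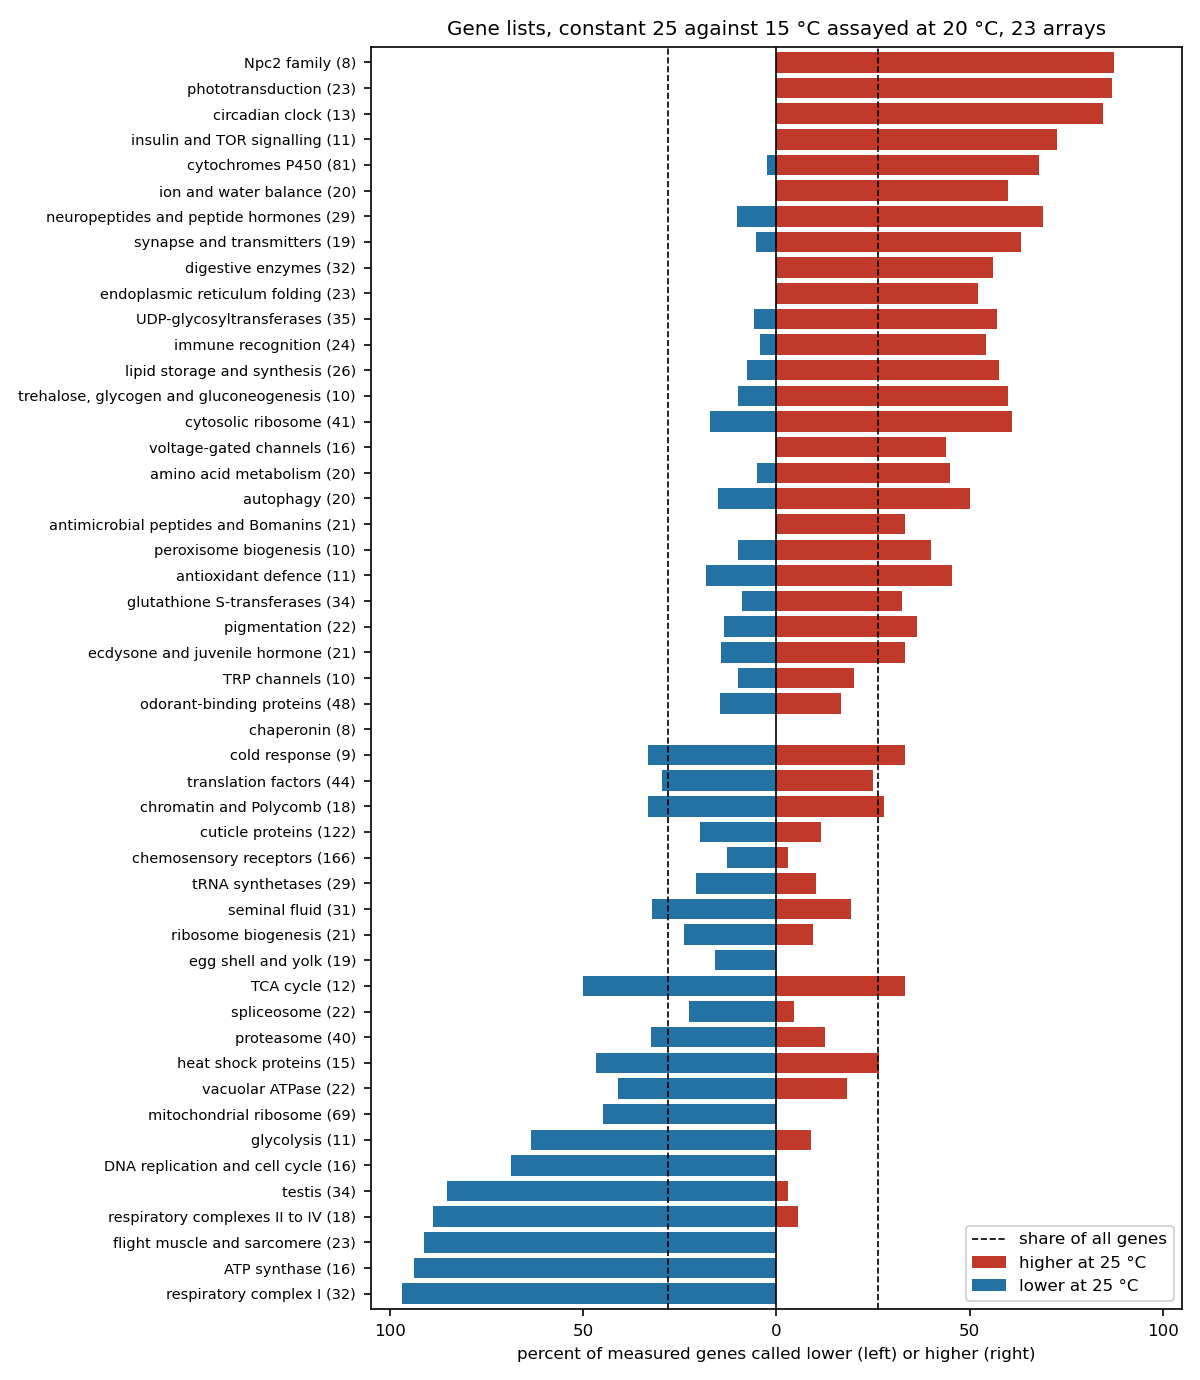
Percent of the measured genes of each list (number in brackets, lists of 8 or more) that were higher (red, right) or lower (blue, left) at 25 than at 15 °C, on 23 arrays. Dashed lines mark the shares of all genes, 26.2% higher and 28% lower. Respiratory, muscle and testis lists lie at the bottom, and the Npc2, phototransduction and clock lists at the top.

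More cytosolic ribosomal protein genes rose than fell, and mitochondrial ones fell or were not called, by small amounts. Of 41 cytosolic ribosomal protein genes 25 rose (61%) and 7 fell (median 0.19). On the 22 arrays without 15 °C replicate 1 they were 30 and 7, and the count higher was 15 without 15 °C replicate 2, 16 without 15 °C replicate 3 and 10 in a fit on the 6 arrays alone. The last count is 24.4% of the list, where 23.4% of all genes rose in that fit. *RpL27* had 12.97, 13 and 13.14 log2 units in 25 °C flies, against 12.74, 12.44 and 12.61 in 15 °C flies, and *RpL34a* read 11.15, 10.98 and 11.19 log2 units in 25 °C flies, against 10.99, 10.46 and 10.52 in 15 °C flies. *RpL27* rose by 0.44 ± 0.071, while *RpL34a* (0.45) overlapped between groups through 15 °C replicate 1. Those that fell most were paralogs. *RpS28a* fell by 1.15 ± 0.10 where its paralog *RpS28b* rose by 0.22 ± 0.056, a pair named here after their values were seen. *RpL22-like*, which is known from the testis, changed by -0.63, and *RpS5b*, the germ line paralog, by -1.39 (-0.52 without 15 °C replicate 1). Of 69 mitochondrial ribosomal protein genes 0 rose and 31 fell (44.9%, median -0.18), among them *mRpL42* (-0.73) and *mRpL52* (-0.66). The count lower was 18 without 15 °C replicate 1, a share of 26.1% where 27.2% of all genes fell, and 19 without 25 °C replicate 2. Of 44 translation factors 11 rose and 13 fell, and the count higher was 7 without 15 °C replicate 2. For 29 aminoacyl-tRNA synthetases the counts were 3 and 6, with 12 higher without 15 °C replicate 1. The 22 splicing genes had 1 higher and 5 lower (4 higher without 15 °C replicate 1), with *B52* at 0.44 (0.57 in a second probe set, and not called in 3 others) and *tra2* at -0.54. Of 21 genes of ribosome assembly, a list from which 1 wrongly placed gene was removed after its value was seen, 2 rose and 5 fell (7 and 4 without 15 °C replicate 1).

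Paralogs of proteasome subunits fell, and few of the other subunits moved. The list was split into these groups after values were seen, so the split is a description. Of 14 measured genes with a T or R in their symbol, which marks paralogs of the core and cap subunits, the T ones named for the testis, 0 rose and 12 fell, with a median change of -0.57. Of the 26 other subunits 5 rose and 1 fell, with a median of 0.070, and 10 rose and 0 fell without 15 °C replicate 1. *Prosbeta2R2* had 8.34, 8.59 and 8.52 log2 units in 25 °C flies, against 9.39, 9.63 and 9.67 in 15 °C flies, and fell by 1.08 ± 0.11 log2 units (adjusted p = 2.7e-07). *Prosbeta5R1* changed by -0.70 and its counterpart *Prosbeta5* by 0.24 (adjusted p = 0.014), a pair named after their values were seen. *Prosbeta5* missed the threshold without 25 °C replicate 1 or 15 °C replicate 2 or 3 (adjusted p of 0.059 to 0.075). *Rpt3* (0.46) and *Prosalpha4* (0.43) rose most. The count of 5 higher over all 40 proteasome genes was 2 or 3 without 25 °C replicate 1 or 3 or 15 °C replicate 2 or 3. The vacuolar proton pump had 4 of 22 genes higher and 9 lower, with the subunit paralogs *Vha14-2* (-1.14) and *Vha16-4* (-0.87) lowest, and *Vha100-5* (0.70) and *Vha100-4* (0.69) highest. The count higher there was 2 without 25 °C replicate 1.

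Chaperones moved in both directions. Of 23 genes of protein folding in the endoplasmic reticulum 12 rose and 0 fell, with *Hsc70-3*, the Hsp70 of that compartment, up by 0.59 ± 0.087 and the unfolded protein sensor *Atf6* by 0.49. Among 15 measured heat shock protein genes 4 rose and 7 fell, and the count higher was 2 without 25 °C replicate 1 or without 15 °C replicate 3. *Hsp26*, a small heat shock protein, had 10.07, 9.87 and 10.06 log2 units in 25 °C flies, against 11.18, 10.49 and 10.63 in 15 °C flies. *Hsp27* had 10.06, 10.06 and 10.14 log2 units in 25 °C flies, against 10.99, 10.65 and 10.77 in 15 °C flies. They fell by 0.77 and 0.72, and with 15 °C replicate 1 left out their changes were -0.56 and -0.63. *Hsc70-1* (-0.79, with other probe sets at -0.29 and, not called, -0.18) and *Hsc70-2* (-0.75) also fell, while the cytosolic *Hsc70-4* (0.37) and its co-chaperone gene *stv* (0.38) rose. Of 8 subunits of the chaperonin CCT, which folds actin and tubulin, 0 rose and 0 fell on 23 arrays, 1 rose without 15 °C replicate 1 and 2 fell without 15 °C replicate 2 or 3. In autophagy 10 of 20 genes rose, with *Atg3* at 0.66 and *Atg9* at 0.45, and 3 fell (1 without 15 °C replicate 2), with *Atg8b* at -0.54.

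Detoxification genes were more often higher than lower. Of 81 cytochromes P450, which oxidise plant toxins, insecticides and hormones, 55 rose and 2 fell, with a median of 0.40 (46 and 2 without 15 °C replicate 1). *Cyp6w1* had 12.90, 12.98 and 13.02 log2 units in 25 °C flies, against 11.24, 10.98 and 11.11 in 15 °C flies and rose by 1.86 ± 0.16 log2 units (adjusted p = 3.6e-08). *Cyp12d1-d* had 12.11, 12.29 and 12.21 log2 units in 25 °C flies, against 10.55, 10.51 and 10.80 in 15 °C flies, a rise of 1.58 ± 0.10, whereas *Cyp305a1* was lower (-0.49). The UDP-glycosyltransferases, which couple sugars to foreign compounds, had 20 of 35 genes higher and 2 lower, with *Ugt37A2* at 1.49 and *Ugt37B1* at 1.17, and *Ugt36F1* at -0.40. Of 34 glutathione S-transferases 11 rose (32.4%, near the 26.2% of all genes) and 3 fell (8.82%, against 28%). *GstD2* (1.06) and *GstE7* (0.92) were highest and *GstO1* (-0.47) lowest. On the 22 arrays 7 of the 34 rose, where 26.4% of all genes did, and without 15 °C replicate 3 1 fell. Both parts of the oxidative stress switch were higher, *Keap1* by 0.71 and *cnc*, the factor it holds back, by 0.43 (0.15 in a second probe set, not called), while *Sod2*, the mitochondrial superoxide dismutase, fell by 0.73 ± 0.088. Of the 4 metallothionein genes *MtnB* and *MtnC* (1.47) rose, and *MtnA* was lower (-0.27, adjusted p = 0.013), a call lost without 25 °C replicate 2 (adjusted p = 0.058) or 15 °C replicate 3 (adjusted p = 0.086).

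**Figure D3:**
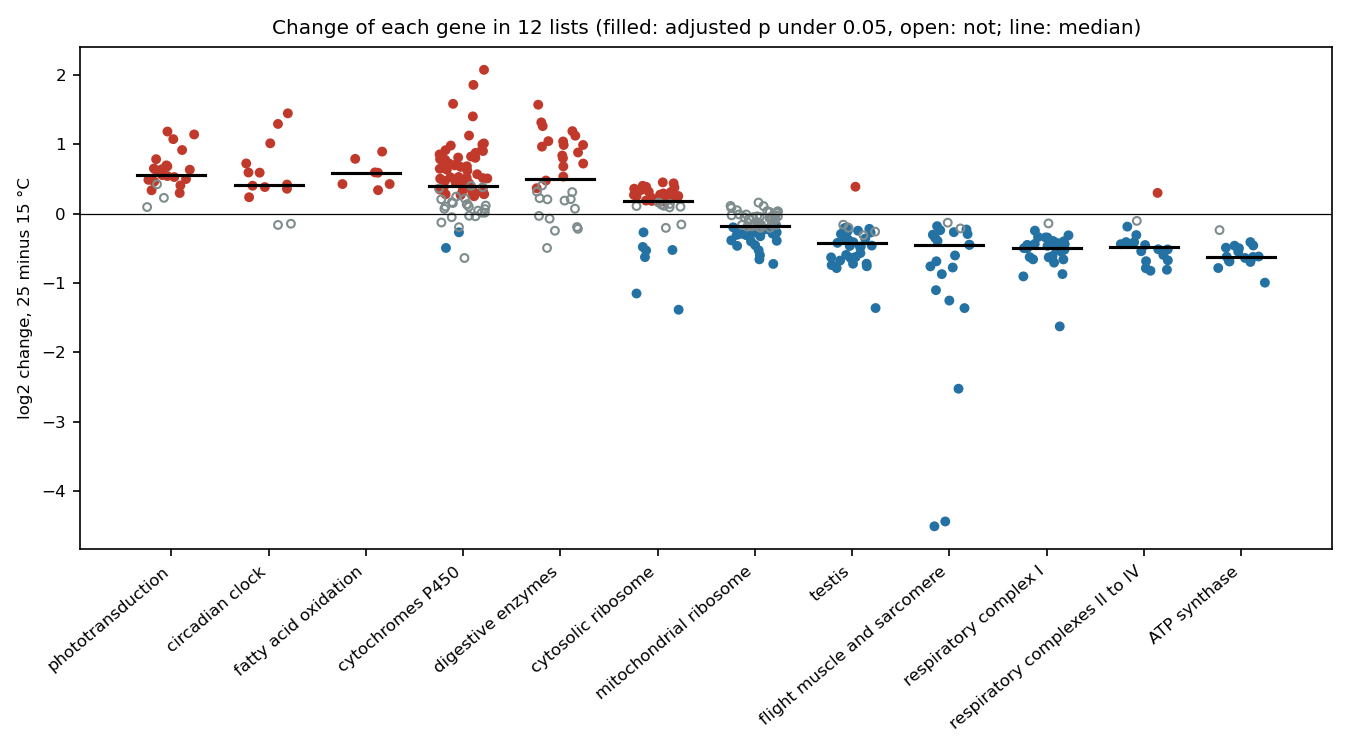
Log2 change (25 minus 15 °C) of every measured gene in 12 lists. Filled points were called (red higher, blue lower), open points were not, and lines are list medians. The 23 phototransduction genes all lie above 0, and all 32 complex I genes and all 16 ATP synthase genes lie below it.

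Genes of immunity and of the gut were higher or not called, with few exceptions. Of 21 antimicrobial peptide and Bomanin genes 7 rose (12 in a fit on the 6 arrays alone) and 0 fell. The 7 are 33.3% of the list, near the 26.2% of all genes that rose, where 28% of all genes fell. *Mtk* led them. The next largest change among those called was that of the Bomanin *BomT2*, which had 11.62, 11.63 and 11.38 log2 units in 25 °C flies, against 10.79, 10.77 and 10.54 in 15 °C flies, a rise of 0.85 ± 0.13. The cecropin gene *CecB* rose by 0.58 (adjusted p = 0.037) and was not called without 25 °C replicate 1 or 3 or any 1 of the 15 °C arrays (adjusted p of 0.059 to 0.18). Among 24 genes of immune recognition 13 rose, among them the peptidoglycan receptors *PGRP-SB1* (1.29 ± 0.38) and *PGRP-SC2* (1.21 ± 0.12), and 1 fell. That gene was *PPO3*, a prophenoloxidase of blood cells, which had 3.93, 4.27 and 4.30 log2 units in 25 °C flies, against 5.76, 6.44 and 6.05 in 15 °C flies and fell by 1.92 ± 0.16 log2 units (adjusted p = 3.4e-08). The stress peptide gene *TotC* was called higher (1.58 ± 0.62, adjusted p = 0.044), a call lost without any 1 array other than 15 °C replicate 2 (adjusted p of 0.061 to 0.25). Of 5 markers of the fat body, the organ that makes most immune peptides, *Lsp2* and *apolpp* rose by 1.37 and 0.36, while *Fbp1* (-0.54), *Fad2* (-1.47) and *Desat1* (0.21) were not called. Their part in the immune changes was not tested. Of 8 *Npc2* genes 7 rose and 0 fell, with *Npc2f* at 0.86 and *Npc2g* at 0.84 after *Npc2e*. Of 32 gut proteases, maltases and amylases 18 rose and 0 fell (median 0.51), although 1 was called lower without 25 °C replicate 2 or 3 or 15 °C replicate 3. The maltase gene *Mal-A7*, which splits sugars in the gut, had 11.45, 11.28 and 10.80 log2 units in 25 °C flies, against 9.05, 9.97 and 9.79 in 15 °C flies and rose by 1.57 ± 0.20. *Mal-A8* (1.32) and *Mal-A4* (1.26) followed. The median of 4 gut markers was 12.47, 12.50 and 12.62 at 25 °C, against 12.06, 12.15 and 12.33 at 15 °C, and all 4 are members of this list. In amino acid metabolism 9 of 20 genes rose, led by the glycine enzymes *Gnmt* (1.61), *Sardh* (0.97) and *Shmt* (0.69), and 1 fell, the proline dehydrogenase gene *slgA* (-0.27).

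Most genes of phototransduction and of the clock rose in flies from 25 °C. Of 23 measured genes of phototransduction, the cascade that turns light into a voltage in photoreceptors, 20 rose and 0 fell, with a median of 0.56 (20 and 0 without 15 °C replicate 1). *inaD*, the scaffold of the cascade, had 8.89, 8.80 and 9.05 log2 units in 25 °C flies, against 7.81, 7.67 and 7.70 in 15 °C flies and rose by 1.18 ± 0.15 log2 units (adjusted p = 4.4e-06). The light-gated cation channel gene *trp* had 9.79, 9.95 and 10.27 log2 units in 25 °C flies, against 9.04, 8.79 and 8.74 in 15 °C flies, and its regulator *inaC*, a protein kinase C, had 10.14, 10.07 and 10.34 log2 units in 25 °C flies, against 9.32, 9.03 and 8.97 in 15 °C flies. They rose by 1.14 ± 0.18 and 1.08 ± 0.16. Both eye markers used here, *trp* and *chp*, are members of the list, so that more eye tissue and more RNA per cell cannot be told apart. Of 13 clock genes 11 rose and 0 fell (median 0.42). *Pdf*, the peptide by which clock neurons signal, had 8.71, 8.70 and 8.88 log2 units in 25 °C flies, against 7.38, 7.44 and 7.13 in 15 °C flies. The core clock gene *tim* had 10.57, 10.54 and 10.39 log2 units in 25 °C flies, against 9.25, 9.24 and 9.13 in 15 °C flies, and its partner *per* had 7.15, 7.10 and 7.05 log2 units in 25 °C flies, against 6.07, 6.10 and 6.09 in 15 °C flies. They rose by 1.45 ± 0.12, 1.29 ± 0.088 and 1.01 ± 0.085, and a second probe set of *tim* rose by 1.14. All pools were frozen at the same time, so the clock was read at 1 time of day only. Of 19 synaptic genes 12 rose and 1 fell, with *unc-13* (1.03), *Rab3* (0.69) and *Snap25* (0.64), all of vesicle release, highest. The 1 that fell, *brp* of the active zone, did so in 1 probe set (-1.41), while its 3 other probe sets had changes of 0.10, 0.13 and -0.050 and were not called. Of 16 voltage-gated channel genes 7 rose and 0 fell, with the potassium channel gene *SK* at 0.88 (1.02 in a second probe set, and not called in the other two) and *Ih* at 0.55. Over 3 markers of neurons, *elav*, *nSyb* and *para*, the median was 8.01, 7.80 and 8.01 at 25 °C, against 7.39, 7.24 and 7.36 at 15 °C, but all 3 belong to these lists too. *NaCP60E* (0.58) had a second probe set at -0.012 that was not called.

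Among 29 neuropeptide and peptide hormone genes 20 rose and 3 fell. The insulin-like peptide gene *Ilp2*, a main signal for growth and sugar balance, had 8.20, 8.08 and 8.18 log2 units in 25 °C flies, against 6.92, 6.92 and 6.71 in 15 °C flies and rose by 1.31 ± 0.13 log2 units (adjusted p = 3.9e-07). *sNPF*, a feeding peptide, had 7.72, 7.85 and 8.06 log2 units in 25 °C flies, against 6.88, 6.53 and 6.89 in 15 °C flies, a rise of 1.11 ± 0.14. *Eh*, *Nplp3* (-1.5) and *Ilp8* (-0.85) fell, and *Ilp8* changed by -0.44 without 15 °C replicate 1. Of 11 genes of insulin and TOR signalling 8 rose and 0 fell, with the kinases *Akt* (0.75) and *S6k* (0.72) and the factor *REPTOR* (0.53) highest. In the steroid and juvenile hormone pathways 7 of 21 genes rose (3 without 25 °C replicate 3, 4 without 15 °C replicate 2) and 3 fell. *Jheh2*, which degrades juvenile hormone, rose by 0.79 ± 0.097, and the ecdysone synthesis genes *shd* (-0.57) and *dib* (-0.50) fell, though a second probe set of *shd* had 0.056 and was not called. In ion and water balance 12 of 20 genes rose and 0 fell (1 fell without 25 °C replicate 1), with the sodium proton exchanger *Nha2* (0.61), the potassium channel gene *Irk3* (0.56) and the glycerol channel gene *Eglp2* (0.55) highest. Of 9 genes tied to cold in flies 3 rose and 3 fell. *Fst* (0.98) and *smp-30* (0.71) were among those that rose, and *Hsp26*, *Hsp27* and *Hsp68* (-0.49) fell.

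Receptor genes of smell and taste were mostly dim and not called. Of 166 odorant, gustatory and ionotropic receptor genes 5 rose and 21 fell, where 26.2% and 28% of all genes did. Of the 166, 130 had a mean level of 4 or less, where 5.69% of all probe sets rose and 2.18% fell. Without 25 °C replicate 1, 15 °C replicate 2 or 15 °C replicate 3 the counts lower were 13, 10 and 13. The count higher was 2 without 25 °C replicate 1 or 15 °C replicate 3 and 3 without 15 °C replicate 1. Of 10 genes of TRP channels and related heat sensors 2 rose and 1 fell, and 1 rose without 25 °C replicate 1, 15 °C replicate 1 or 15 °C replicate 3. Those that fell most were *Gr8a*, the odorant receptor gene *Or85c* and the ionotropic receptor gene *Ir100a*. *Gr8a* had 3.53, 3.49 and 3.37 log2 units in 25 °C flies, against 5.42, 5.44 and 5.78 in 15 °C flies. *Or85c* had 3.19, 3.09 and 3.22 log2 units in 25 °C flies, against 5.12, 5.03 and 5.21 in 15 °C flies. *Ir100a* changed by -1.38 ± 0.17. The odorant-binding proteins, which carry odorants to receptors, had 8 of 48 genes higher and 7 lower, with *Obp18a* at 0.74 and *Obp56e* at -1.06. Of 122 cuticle and chitin genes 14 rose and 24 fell. The chitinase genes *Cht9* (1.61) and *Cht4* (1.49) rose most, and *Cpr100A*, a structural cuticle protein, fell most, with 6.42, 6.11 and 5.90 log2 units in 25 °C flies, against 7.90, 7.71 and 7.71 in 15 °C flies. *Cpr47Ef* fell by 1.27 in the probe set used, while a second one had 0.037 and was not called. Of 22 pigmentation genes 8 rose and 3 fell (5 fell without 15 °C replicate 2). *ebony* (*e*), whose enzyme makes the pale sclerotin precursor, had 5.98, 5.98 and 6.19 log2 units in 25 °C flies, against 6.78, 6.79 and 6.95 in 15 °C flies and fell by 0.79 ± 0.12 log2 units (adjusted p = 2.4e-05). *bab1* (0.55) and *bab2* (0.57), repressors of abdominal pigment, rose, as did *yellow-f2* (0.71). *yellow* (*y*) had a change of -0.045 (adjusted p = 0.75), but read only 3.27 to 3.60 on the arrays compared, a level at which few probe sets were called. *tan* (*t*), whose enzyme reverses that of *ebony*, had a change of 0.22 (adjusted p = 0.13).

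Testis genes were lower at 25 °C. Of 34 genes of meiosis and spermatid formation 1 rose and 29 fell (median -0.42), and without 15 °C replicate 1 31 fell. *topi*, which switches on the meiotic program of the male germ line, had 7.26, 7.43 and 7.29 log2 units in 25 °C flies, against 8.46, 8.77 and 8.84 in 15 °C flies and fell by 1.36 ± 0.12 log2 units (adjusted p = 9.5e-08). *can* (-0.76), of the same program, and *twe* (-0.79), the phosphatase that starts meiosis, fell as well, while *mia*, also needed for meiosis in males, rose (0.39). Over the 13 testis markers the median level was 10.65, 11.16 and 11.03 in 25 °C flies, against 11.15, 11.28 and 11.32 in 15 °C flies, so that the groups overlapped by 1 array. The part of testis size in these changes was not tested. The male tract showed no single direction. Of 31 seminal fluid genes 6 rose and 10 fell (6 fell without 15 °C replicate 3). *Acp53C14c* had 8.53, 8.04 and 8.23 log2 units in 25 °C flies, against 9.85, 9.51 and 9.94 in 15 °C flies and fell by 1.5 ± 0.18. *Acp76A* (-1.11) and *Acp26Aa* (-0.93), both passed to the female at mating, also fell, while *lectin-46Cb* (0.72) and *Acp32CD* (0.64) rose. Of 16 genes of DNA replication and the cell cycle 0 rose and 11 fell, with *Orc5*, of the origin complex, at 6.10, 6.10 and 6.17 in 25 °C flies, against 7.47, 7.48 and 7.48 in 15 °C flies. It fell by 1.35 ± 0.087 log2 units (adjusted p = 1.3e-09). *dpa*, of the replicative helicase, had a change of -1.09. Without 15 °C replicate 1 the list had 2 higher and 10 lower, and its median moved to -0.44, against -0.77 with that array. The chromatin genes had 5 of 18 higher and 6 lower, with *trx* at 0.54 and the remodeller *Iswi* at -0.87.

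The egg shell and yolk genes depended on 15 °C replicate 1. The yolk protein gene *Yp1* had 5.05, 4.67 and 5.08 log2 units in 25 °C flies, against 12.89, 3.58 and 4.14 in 15 °C flies. Its change was -1.94 ± 1.35 (adjusted p = 0.27) on 23 arrays and 1.07 (adjusted p = 0.00038) on 22, so that the direction turned. *Yp3* turned likewise, with -1.67 against 0.70 (adjusted p = 0.011), and *Yp2* had -2.66 against 0.35 (adjusted p = 0.063). The chorion genes *Cp36* and *Cp38*, which build the egg shell, read 12.42 and 12.04 on that array and 4.30 to 4.94 on the other 5. Of the 19 genes of the list, 0 rose and 3 fell with the array, and 3 rose and 2 fell without it. With the array kept and either of the other 15 °C arrays left out, 16 fell. Over all probe sets 48 changed by at least 1 unit more or less without the array, of which 14 were called on 23 arrays and 13 on 22. Over all called probe sets the median absolute change was 0.49 without the array and 0.46 with it.

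**Figure D4:**
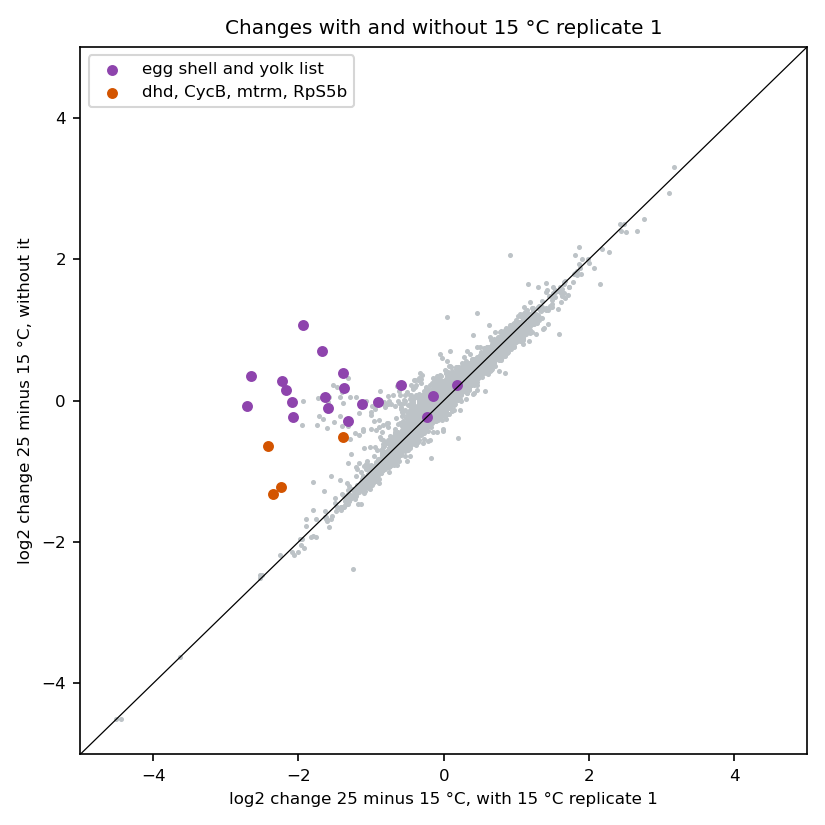
Log2 change (25 minus 15 °C) of every gene with 15 °C replicate 1 in the fit (horizontal axis) and without it (vertical axis), with the line of equal change. Egg shell and yolk genes (purple) and dhd, CycB, mtrm and RpS5b (orange) leave the line, and almost all other genes lie along it.

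Genes on chromosome 4, a short and largely heterochromatic chromosome, had a large share of rises. Of its 65 measured genes 34 rose (52.3%) and 7 fell (10.8%), with a median change of 0.24, while on the other arms and the X 24.9% to 28.7% rose and 25.3% to 31% fell. On the 22 arrays the counts were 32 and 8. In constant flies at 35 °C 31 rose and 8 fell, where 27.7% and 28.5% of all genes did. In fluctuating flies at 20 °C 14 rose and 5 fell, where 22.7% and 23.3% did. The medians were 0.26 and 0.083. Genes of 1 chromosome are not independent replicates, so these shares are a description.

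The same contrast of 25 against 15 °C was made in other flies of the series, which share no array with it. In constant flies ramped to 35 °C, taken from the same cabinets, 7775 of the 8063 probe sets (96.4%) changed with the same sign and 6401 were called in both with 1 sign, which is 79.4% of the 8063 and 78.2% of the 8188 (43.6%) called at 35 °C. In fluctuating flies at 20 °C, from a further pair of cabinets, 7568 (93.9%) had the same sign and 5249 were called in both, 65.1% of the 8063 and 79.2% of the 6628 (35.3%) called there. The changes correlated at r = 0.86 with those at 35 °C and at 0.82 with those of fluctuating flies across probe sets, which are not independent replicates. *TpnC4*, for example, changed by -2.67 at 35 °C and by -3.30 in fluctuating flies, *fln* by -3.10 and -3.26, *Mtk* by 2.49 and 4.09 and *Npc2e* by 2.58 and 2.52. The respiratory lists kept their direction, with 29 of 32 complex I genes lower at 35 °C and 22 lower in fluctuating flies. Not all lists did. The mitochondrial ribosomal list had 4 higher and 18 lower at 35 °C, but 12 higher and 5 lower in fluctuating flies. The synaptic list had 8 higher and 3 lower at 35 °C, and 1 higher and 1 lower in fluctuating flies. The phototransduction list had 11 higher and 0 lower at 35 °C and 7 higher and 1 lower in fluctuating flies. By limma 0 of its 23 genes passed the test of the difference between comparisons, where 7 had an unadjusted p under 0.05 against 35 °C and 15 against fluctuating flies. Over all 18769 probe sets 1715 and 2605 had an unadjusted p under 0.05 in these tests.

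A test of the difference itself found 122 probe sets (0.65%) whose change between mean temperatures differed between the 20 and 35 °C assays, 35 (0.186%) with a more positive change at 20 °C and 87 (0.464%) with a more negative one. Without 15 °C replicate 1 there were 108, of which 95 were among the 122, and on all 24 arrays there were 0, where 116 had an unadjusted p under 0.05. *CG13325* had 7.73, 8.10 and 7.77 log2 units in 25 °C flies, against 4.70, 6.26 and 6.17 in 15 °C flies, a change of 2.16, but one of 0.01 at 35 °C, a difference of 2.15 ± 0.43 (adjusted p = 0.016). Part of its size came from 15 °C replicate 1, without which the change at 20 °C was 1.65. The asparagine synthetase gene *AsnS* rose by 0.57 at 20 °C and by 2.24 at 35 °C, a difference of -1.67 (adjusted p = 0.00018). *Hsp26* and *Hsp27* fell at 20 °C but changed by 0.079 and 0.26 at 35 °C. Their differences were -0.85 (adjusted p = 0.015) and -0.98 (adjusted p = 8.8e-05). Of the 15 heat shock genes 5 differed between the assays and of the 8 chaperonin genes 3, where 0.893% of all genes did. In another set the change lay mainly at 35 °C. *Cubn* and *Cubn2*, receptors of the cubilin type, and *Amnionless*, which cubilin needs at the membrane, had changes of 0.43, -0.024 and 0.077 at 20 °C, against -0.98, -2.02 and -1.55 at 35 °C. Of these, *Cubn* was called higher at 20 °C (adjusted p = 0.026), but not without 25 °C replicate 1 or 2 or 15 °C replicate 2 or 3 (adjusted p of 0.056 to 0.15). At 20 °C *Cubn2* read only 3.51 to 4.58 and *Amnionless* 3.56 to 4.66, near a level at which few probe sets were called. A second probe set of *Cubn2* changed by 0.033 at 20 °C and was not called.

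Between constant and fluctuating flies at 20 °C 14 probe sets (0.0746%) differed in their change, where 2605 had an unadjusted p under 0.05. Without 15 °C replicate 1 there were 2, both among the 14, and on all 24 arrays 0. The count was 6 without constant 25 °C replicate 1, 3 without constant 25 °C replicate 2 or constant 15 °C replicate 2, 2 without fluctuating 25 °C replicate 1 or fluctuating 15 °C replicate 3, 6 without fluctuating 25 °C replicate 3 or fluctuating 15 °C replicate 1, and 7 without fluctuating 15 °C replicate 2. The first is 1626699_at, which rose by 4.35 in constant flies and by 2.17 in fluctuating flies. Its fluctuating arrays read 8.32, 8.66 and 8.30 at 25 °C, against 6.66, 6.16 and 5.96 at 15 °C, and the difference was 2.18 ± 0.28 (adjusted p = 0.0024, and 0.012 on 22 arrays). The other is a probe set of *polychaetoid* (*pyd*, 1627360_at), a protein of cell junctions, which was not the one of highest mean for its gene and is named after its values were seen. In constant flies it had 7.21, 7.13 and 7.23 at 25 °C, against 6.73, 6.62 and 6.51 at 15 °C, a change of 0.57 (adjusted p = 0.00011). In fluctuating flies it had 7.02, 7.01 and 7.07 at 25 °C, against 7.36, 7.35 and 7.35 at 15 °C, a change of -0.32 (adjusted p = 0.016). The directions were opposite, with a difference of 0.89 ± 0.14 (adjusted p = 0.022, and 0.028 on 22 arrays).

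**Figure D5:**
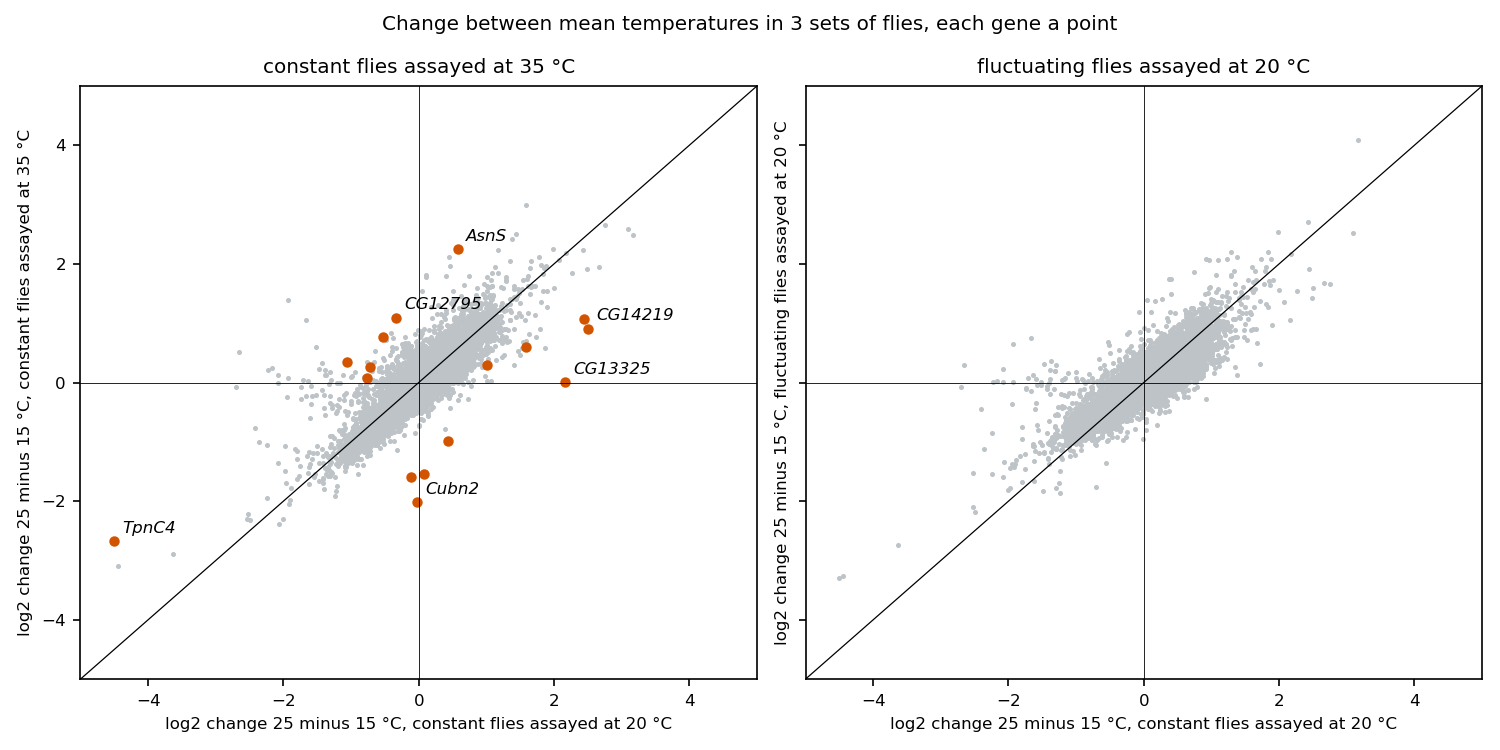
Log2 change (25 minus 15 °C) of every gene in constant flies at 20 °C (horizontal axes) against the same change in constant flies ramped to 35 °C (left) and in fluctuating flies at 20 °C (right), with lines of equal change. Orange points are the 16 named genes whose change differed between the assays. Most genes follow the line in both panels.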

How the data were processed

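RNA of pools of 20 whole males was measured on 24 Affymetrix Drosophila Genome 2.0 arrays. The values deposited by the authors are log2 expression levels, normalised by GC-RMA with the gcrma package in R. All 24 array columns were matched to their samples by title, and no column was left unused. Of 18952 probe sets 183 array controls were left out. The platform annotation gave 1 gene symbol for 13647 of the other 18769, several for 402 and none for 4720. Probe sets with several or none stay unnamed. Each of 11982 genes was represented by its probe set with the highest mean over 23 arrays. Arrays give no read depth, so their number limits the precision.

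A linear model with a mean for each of the 8 groups was fitted to 23 arrays (limma 3.58.1, R 4.3.3). The array left out, replicate 3 of the 15 °C fluctuating flies at 35 °C, correlated poorly with every other array. The 25 minus 15 °C contrast and its differences between comparisons were tested with Benjamini-Hochberg adjustment over all 18769 probe sets, at an adjusted p under 0.05. The ± value beside a change is its standard error. Named genes were the 15 called with the largest change in each direction with and without 15 °C replicate 1, whose arrays did not overlap, up to 3 called a direction in each of 52 gene lists, the 5 a direction that differed most between comparisons, the 10 that moved most without 15 °C replicate 1, tissue markers, and genes with a textbook role in temperature response. Paralog pairs called in opposite directions, and any other gene so marked, were picked after their values were seen. So were the groups of paralogs with T, R or L in their symbol. The members and lists were chosen with earlier results of these data known. The pools come from 1 cabinet each, so p-values measure the spread between pools only. The procedure was tested on simulated data. Alternatives were other sets of arrays, each array left out, a replicate block, a level filter, a variance trend, array weights, other scalings, other probe sets of a gene and stricter thresholds.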

Additional observations from a re-analysis of the deposited data

Results flagged for a closer look

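For 16 named genes the test of the difference itself separated the 25 minus 15 °C change at 20 °C from that at 35 °C in constant flies, by limma on 23 arrays. Each value here is the change at 20 °C minus that at 35 °C, in log2 units, from 3 arrays a group. The rise was larger at 20 °C in *CG13325*, with a difference of 2.15 (adjusted p = 0.016, and 0.0097 on 22 arrays), *CG14219*, with 1.60 (adjusted p = 0.029, and 0.083 on 22 arrays), *CG15043*, with 1.38 (adjusted p = 0.0016, and 0.0052 on 22 arrays), *Cyp12d1-d*, with 0.99 (adjusted p = 0.0009, and 0.0031 on 22 arrays), and *per*, with 0.72 (adjusted p = 0.0033, and 0.0084 on 22 arrays). *CG14219* thus lost its call without 15 °C replicate 1.

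The change was more negative at 20 °C in *TpnC4*, with -1.84 (adjusted p = 0.0093, and 0.021 on 22 arrays), *Hsp26*, with -0.85 (adjusted p = 0.015, and 0.0056 on 22 arrays), *Hsp27*, with -0.98 (adjusted p = 8.8e-05, and 0.00021 on 22 arrays), and *AsnS*, with -1.67 (adjusted p = 0.00018, and 0.00051 on 22 arrays). *CG12795* (-0.34 at 20 °C and 1.09 at 35 °C) had a difference of -1.43 (adjusted p = 8.2e-08, and 4e-07 on 22 arrays). *CG6511* (-1.06 and 0.35) had -1.41 (adjusted p = 0.00066, and 0.00052 on 22 arrays), and *CG18213* (-0.52 and 0.76) had -1.29 (adjusted p = 5.7e-05, and 0.00021 on 22 arrays).

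A fall at 35 °C went with positive differences in *Cubn2*, with 1.99 (adjusted p = 0.0053, and 0.0081 on 22 arrays), *Amnionless*, with 1.62 (adjusted p = 0.0071, and 0.00057 on 22 arrays), *Cubn*, with 1.41 (adjusted p = 0.0011, and 0.00066 on 22 arrays), and *lectin-33A*, with 1.48 (adjusted p = 0.0093, and 0.0013 on 22 arrays). The last changed by -0.12 at 20 °C and by -1.60 at 35 °C. Between constant and fluctuating flies at 20 °C the probe set 1626699_at differed by 2.18 (adjusted p = 0.0024) and the *pyd* probe set 1627360_at by 0.89 (adjusted p = 0.022). No cause of these differences was tested.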

How the results depend on the processing

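Against the 8063 calls, 818 probe sets were called with all 24 arrays, 373 higher and 445 lower. With a change of at least 1 required as well, 532 were called. A fit on the 6 arrays alone gave 7196, the 5 arrays without 15 °C replicate 1, an alternative chosen after seeing the data, 7734, and leaving out 1 array 6859 to 7891. Median centring gave 8080 (4281 higher, 3799 lower). Same-numbered arrays deviated together only weakly (r of 0.030, 0.063 and 0.031), where arrays of other numbers had r of -0.070 to 0.033. These values do not settle whether the numbers pair the arrays, and the replicate block gave 7910.

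The difference from the 35 °C assay was called in 122 probe sets, but in 0 with all 24 arrays (116 at an unadjusted p under 0.05 by limma), 71 on its own arrays, 460 with array weights, 103 with the replicate block and 85 to 108 with 1 array left out. The difference from fluctuating flies was called in 14, but in 0 with all 24 arrays (165 unadjusted), 4 on its own arrays, 30 with the level filter, 418 with array weights, 31 after median centring, 36 after quantile normalization, 11 with the replicate block and 2 to 14 with 1 array left out. The causes were not tested.

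Of 192 named genes all kept their direction and their side of the threshold under the block, the variance trend, median centring and quantile normalization, 125 lost the call with all 24 arrays, 8 on the 6 arrays alone and 2 with array weights. The direction turned in *Yp1* (1.07) and *Yp3* (0.70) without 15 °C replicate 1, on 22 or 5 arrays, where leaving out 1 array gave -3.58 to 1.07 and -2.92 to 0.70, on 22 arrays in some genes called neither with nor without it, among them *Yp2* (0.35), *Cp38* (0.27) and *Vm26Aa* (0.16), and in other probe sets of *Cpr47Ef* (0.037), *brp* (0.13 and 0.10), *NaCP60E* (-0.012) and *shd* (0.056), none of which was called. Of the counts higher or lower in the lists, 82 moved by over 1.5 times with all 24 arrays (22 did not), 13 with array weights, 12 on the 6 arrays alone and 14 without 15 °C replicate 1. Array signal near background limits dim genes.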

Other observations

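Several probe sets that the annotation used here does not pair with a single gene changed by about as much as the leading named genes. Probe set 1641474_s_at had 6.13, 6.22 and 6.20 in 25 °C flies, against 8.66, 8.55 and 8.10 in 15 °C flies, a change of -2.25 ± 0.16 (adjusted p = 3.9e-09) by limma. Probe set 1629483_at had 4.58, 4.93 and 4.50 in 25 °C flies, against 6.62, 6.94 and 6.73 in 15 °C flies, a change of -2.09 ± 0.13 (adjusted p = 1.1e-09), and 1641581_at had 5.21, 5.30 and 5.18 in 25 °C flies, against 7.40, 7.11 and 7.14 in 15 °C flies, a change of -1.99 ± 0.11 (adjusted p = 3.6e-10). In all 3, which were picked for their large change, the arrays of both temperatures lay apart. Probe set 1626429_at had 3.81, 3.64 and 3.71 in 25 °C flies, against 5.06, 6.33 and 6.31 in 15 °C flies, a change of -2.18 ± 0.41 (adjusted p = 0.00021). The rise of 1625124_at had a larger error. It had 7.25, 7.41 and 8.16 in 25 °C flies, against 5.5, 5.14 and 5.99 in 15 °C flies, a change of 2.06 ± 0.77 (adjusted p = 0.036), and its change was 2.04 (adjusted p = 0.069) without 15 °C replicate 1. Some calls were lost when 1 array was left out. The juvenile hormone esterase duplication gene *Jhedup* had 4.41, 4.28 and 4.96 log2 units in 25 °C flies, against 4.90, 4.94 and 6.48 in 15 °C flies, a change of -0.89 (adjusted p = 0.026), and one of -0.37 (adjusted p = 0.25) without 15 °C replicate 3. The odorant-binding protein gene *Obp56h* had 6.72, 7.33 and 7.08 log2 units in 25 °C flies, against 8.42, 7.88 and 8.0 in 15 °C flies, a change of -1.06 (adjusted p = 0.019), and one of -0.89 without 25 °C replicate 1 (adjusted p = 0.085) or 15 °C replicate 1 (adjusted p = 0.073).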
